A study of Homo sapiens with 12 samples.

Results

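The genes described here are the hypoxia-inducible factors and the proteins that tie them to oxygen: EPAS1, HIF1A, ARNT, VHL, EGLN1, EGLN2, EGLN3 and HIF1AN. They were found by matching Ensembl identifiers to these symbols, and all 8 are among the 63677 genes of the count tables. The set was chosen by the drug response of EPAS1 RNA in wild-type cells, which was known to be large, and HIF1A, ARNT, VHL and the hydroxylases were added for comparison. The response of wild-type cells is therefore a description for these 8 genes, with no test. Of the 8, 7 passed the filter on low counts and EGLN3 did not. EPAS1 passed it only through the drug-treated wild-type libraries, where it is high, so it is described by its reads and its fitted WT fold, with no p-value in any comparison.

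RNA was measured in SET-2, a human acute myeloid leukemia cell line. The groups were insR cells given GSK-LSD1, insR cells given DMSO, WT cells given GSK-LSD1 and WT cells given DMSO, with 3 libraries in each and 12 in all. GSK-LSD1, an irreversible inhibitor of the histone demethylase LSD1 (KDM1A), was given at 250 nM, and the DMSO vehicle at 0.1% by volume, each for 48 hours. WT cells carry wild-type LSD1, and insR cells, called drug-resistant in the labels, carry LSD1 with an inserted arginine (Leu659_Asn660insArg). How the insR line was made, and whether it is 1 clone, is not given in the sources used here. The labels do not say whether the 3 libraries of a group came from separate cultures, so a p-value here reflects only how far these libraries vary, and that variation may be technical.

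As background, EPAS1 (also called HIF2A) and HIF1A are the alpha subunits of the hypoxia-inducible factors, which bind DNA as dimers with ARNT. When oxygen is plentiful, the prolyl hydroxylases EGLN1, EGLN2 and EGLN3 modify the alpha subunits, VHL recognises the hydroxylated form, and the ubiquitin ligase built around VHL marks it for destruction. HIF1AN hydroxylates an asparagine of the alpha subunits and so blocks their binding to the coactivators CREBBP and EP300. Most of this control acts on protein, which was not measured here, and low oxygen was not among the treatments. In blood formation, EPAS1 is best known for driving erythropoietin production by other tissues, and HIF1A for shifting metabolism toward glycolysis.

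The promoters of both alpha subunits are shown because the drug response of the RNA separates these 2 genes most from the others in the set. Each line gives the 250 bases before a RefSeq start site, 5′ to 3′ on the plus strand of GRCh38.p14. HIF1A has 2 start sites in that table, and the window of the first is printed. EPAS1 lies on chromosome 2 and its window is chr2:46297157-46297406, and HIF1A lies on chromosome 14 and its window is chr14:61695263-61695512. Capitals mark GCGTG, one of the 2 core motifs bound by the hypoxia-inducible factors, the other being ACGTG.
EPAS1: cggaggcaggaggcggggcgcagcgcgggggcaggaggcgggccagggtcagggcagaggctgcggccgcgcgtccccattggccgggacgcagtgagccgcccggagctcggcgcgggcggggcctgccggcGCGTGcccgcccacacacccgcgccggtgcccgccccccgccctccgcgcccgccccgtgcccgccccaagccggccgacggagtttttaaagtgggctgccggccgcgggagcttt
HIF1A: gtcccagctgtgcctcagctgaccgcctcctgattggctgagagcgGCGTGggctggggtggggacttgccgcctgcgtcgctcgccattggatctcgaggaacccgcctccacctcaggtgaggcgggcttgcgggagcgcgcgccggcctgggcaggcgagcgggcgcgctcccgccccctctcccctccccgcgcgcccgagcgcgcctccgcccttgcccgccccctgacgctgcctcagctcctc

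Each of the printed windows held 1 GCGTG and no ACGTG on either strand. Of 35116 RefSeq promoter windows of the same length, 32.2% held GCGTG, 18.5% held ACGTG and 43.2% held either. The DNA-binding protein GFI1B, which recruits LSD1, binds sites around AATC, and AATC was found 0 times in the EPAS1 window and 1 time in the printed HIF1A window, against 64.8% of all windows that held it. G and C made up 80.8% of the EPAS1 window and 75.6% of the printed HIF1A window, above the median of 58% over all windows. The second HIF1A window, chr14:61697462-61697711, held 0 GCGTG, 0 ACGTG and 3 AATC, and G and C made up 31.2% of it. Among the sensors, the EGLN1 window held 1 ACGTG, and 1 of the 2 EGLN2 windows held CACGTG, which reads as ACGTG on both strands. The windows of ARNT, EGLN3 and HIF1AN held neither core. In all, 7 of the 8 genes matched a promoter entry, and VHL did not. A match is a description of letters, not of binding.

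Libraries held 4837096 to 10141155 reads in genes. Levels are given in CPM, reads per 1000000 in genes, and 3 reads, the upper limit behind a count of 0, came to 0.296 to 0.62 CPM depending on the library. Library sizes were TMM-scaled, so levels of 1 gene can be compared between groups. Intervals on counts and floors cover counting error only. Of the reads with a unique alignment, 13.7% to 17.1% fell in no gene in insR libraries, 18.4% to 19.5% in WT GSK-LSD1 libraries and 16.3% to 16.7% in WT DMSO libraries. The blood-cell markers PTPRC, CD33, KIT, CD34 and SPI1 were all detected in every group, summing to 1406 to 1490 CPM in insR GSK-LSD1, 1296 to 1460 in insR DMSO, 1978 to 2077 in WT GSK-LSD1 and 1193 to 1207 in WT DMSO libraries. Within WT cells 4 of these 5 markers were higher with the drug. KIT was lower, at 253 ± 7.76 CPM with GSK-LSD1, against 407 ± 6.29 CPM with DMSO. Because these are bulk samples, fewer cells of a type and less RNA per cell cannot be told apart.

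**Figure D1:**
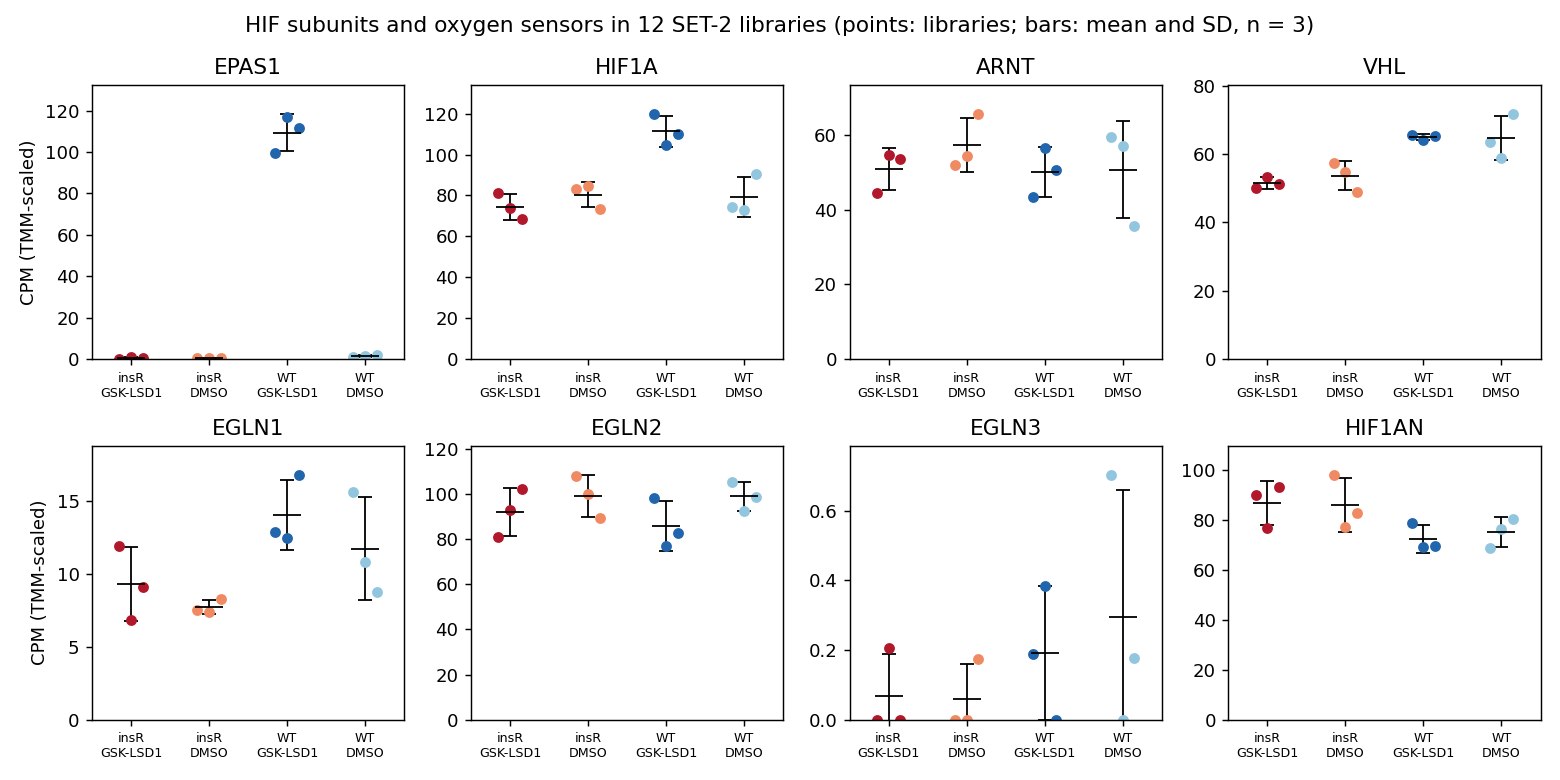
Level of each of the 8 genes in CPM (vertical axis, from 0, scaled to each gene) in the 4 groups (horizontal axis). Points are libraries, and bars give the mean and SD of 3 libraries. EPAS1 reached 99.4 to 117 CPM in the WT GSK-LSD1 libraries and stayed at 1.79 CPM or less in the other 9, while the other detected genes had levels of the same order in all 4 groups.

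EPAS1, the alpha subunit with the narrower tissue range, had few reads except in WT cells given the drug. It had 1, 4 and 3 reads in the insR GSK-LSD1 libraries, 3, 2 and 2 reads in the insR DMSO libraries, 526, 608 and 1097 reads in the WT GSK-LSD1 libraries, and 5, 12 and 10 reads in the WT DMSO libraries. The 3 WT GSK-LSD1 libraries stood apart from all others, and the insR groups overlapped each other. As levels, these were 0.485 ± 0.335 CPM in insR GSK-LSD1, 0.329 ± 0.0233 in insR DMSO, 109 ± 8.89 in WT GSK-LSD1 and 1.42 ± 0.481 in WT DMSO libraries (SD, n = 3 each).

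In WT cells, EPAS1 was 75.1-fold higher with GSK-LSD1 than with DMSO, with a 95% interval of 57.2 to 98.6, a log2 fold change of 6.23 (SE 0.19). That placed it 18th of 12864 tested genes by log2 fold change. On the summed reads, 2231 with GSK-LSD1 against 27 with DMSO, the ratio was 76.3, with an exact 95% interval of 52.3 to 116. In insR cells the summed reads were 8 with GSK-LSD1 and 7 with DMSO, a ratio of 1.41 (exact 95% interval 0.447 to 4.57). Because the interval runs from below to above equal levels, these counts do not tell a fall, no change or a rise in insR cells apart. Under the drug, insR cells held 0.00417 of the EPAS1 level of WT cells (exact 95% interval 0.0018 to 0.00823). The insR response was 5.75 lower than the WT response on the log2 scale (log2 difference -5.75, 95% interval -7.53 to -3.98), a description because it contains the contrast behind the choice of EPAS1.

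HIF1A, the alpha subunit found in most tissues, was expressed in every group. Its levels were 81.05, 73.84 and 68.44 CPM in the insR GSK-LSD1 libraries, 83.23, 84.79 and 73.29 CPM in the insR DMSO libraries, 119.7, 104.6 and 110.3 CPM in the WT GSK-LSD1 libraries, and 74.44, 72.88 and 90.56 CPM in the WT DMSO libraries. The WT GSK-LSD1 libraries were all higher than the other 9, which overlapped one another. In WT cells the level with the drug was 1.41-fold that with DMSO (log2 fold change 0.49, SE 0.10, 95% interval 0.29 to 0.70). In insR cells the log2 fold change was -0.11 (95% interval -0.32 to 0.093), and the test did not separate the groups (edgeR adjusted p = 0.895). The insR response was 0.61 below the WT response on the log2 scale (log2 difference -0.61, 95% interval -0.90 to -0.32), again as a description. The EPAS1 difference between the WT groups was thus 6.23 on the log2 scale where that of HIF1A was 0.49.

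ARNT, the common dimer partner of both alpha subunits, held a similar level throughout. Its levels were 44.47, 54.55 and 53.58 CPM in the insR GSK-LSD1 libraries, 51.93, 54.43 and 65.55 CPM in the insR DMSO libraries, 43.3, 56.45 and 50.5 CPM in the WT GSK-LSD1 libraries, and 59.34, 56.94 and 35.72 CPM in the WT DMSO libraries. All 4 groups overlapped, and the WT DMSO library at 35.72 CPM was the lowest of the 12. The log2 fold change with the drug was -0.17 in insR cells (95% interval -0.50 to 0.17, edgeR adjusted p = 0.906) and -0.021 in WT cells (95% interval -0.36 to 0.32).

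EGLN1, the prolyl hydroxylase known as the main setter of HIF1A levels in normal oxygen, was lower in insR than in WT cells. Its levels were 11.92, 6.845 and 9.136 CPM in the insR GSK-LSD1 libraries, 7.52, 7.423 and 8.26 CPM in the insR DMSO libraries, 12.86, 12.48 and 16.8 CPM in the WT GSK-LSD1 libraries, and 15.63, 10.85 and 8.752 CPM in the WT DMSO libraries. With DMSO every insR library was below every WT library, and the same held with GSK-LSD1, where the difference was not tested. Between insR and WT cells in DMSO the log2 fold change was -0.60 (SE 0.23), with an edgeR adjusted p of 0.0456. The call was lost in 8 of 20 alternatives (adjusted p 0.0146 to 0.288 over all 20): with DESeq2 and limma-voom, without WT DMSO library 1 or 2, without any 1 of the insR DMSO libraries, and without insR GSK-LSD1 library 3. Leaving out WT DMSO library 1, the highest of its group, brought the log2 fold change to -0.36. The drug response was 0.29 in insR cells (95% interval -0.19 to 0.77, edgeR adjusted p = 0.878) and 0.28 in WT cells (95% interval -0.15 to 0.72), both on the log2 scale.

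EGLN2, a prolyl hydroxylase that resides in the nucleus, averaged 92 ± 10.7 CPM in insR GSK-LSD1, 99.1 ± 9.26 in insR DMSO, 85.7 ± 10.9 in WT GSK-LSD1 and 98.9 ± 6.38 in WT DMSO libraries (SD, n = 3 each). The groups overlapped in both drug responses. Its log2 fold change with the drug was -0.11 in insR cells (95% interval -0.32 to 0.10, edgeR adjusted p = 0.906) and -0.21 in WT cells (95% interval -0.42 to 0.0084). EGLN3, the prolyl hydroxylase most readily induced by hypoxia in many cells, had 10 reads in all 12 libraries together. It had 0, 1 and 0 reads in insR GSK-LSD1, 0, 0 and 1 in insR DMSO, 1, 2 and 0 in WT GSK-LSD1 and 4, 0 and 1 in WT DMSO libraries. At this depth no group could be told from another, and no fold is given.

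HIF1AN, the asparaginyl hydroxylase, averaged 86.7 ± 8.78 CPM in insR GSK-LSD1, 86.1 ± 10.7 in insR DMSO, 72.5 ± 5.63 in WT GSK-LSD1 and 75.2 ± 5.98 in WT DMSO libraries (SD, n = 3 each). Its log2 fold change with the drug was 0.0077 in insR cells (95% interval -0.20 to 0.22, edgeR adjusted p = 0.998) and -0.055 in WT cells (95% interval -0.27 to 0.16). Between insR and WT cells in DMSO it was 0.20 (95% interval -0.012 to 0.41, edgeR adjusted p = 0.153). HIF1AN overlaps NDUFB8 on the opposite strand, EGLN2 lies within a readthrough gene listed at 0, EGLN3 overlaps SPTSSA, and the antisense gene HIF1A-AS3 held 5 reads. The strand setting of the counting is not known here, and reads of such pairs may not be separable.

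VHL, the substrate-binding subunit of the ligase, was lower in insR than in WT cells by a small margin. Its levels were 49.95, 53.31 and 51.1 CPM in the insR GSK-LSD1 libraries, 57.32, 54.6 and 49.03 CPM in the insR DMSO libraries, 65.61, 64.13 and 65.17 CPM in the WT GSK-LSD1 libraries, and 63.55, 58.95 and 71.63 CPM in the WT DMSO libraries. No insR library reached the lowest WT library. In DMSO the log2 fold change of insR over WT was -0.26 (SE 0.097), with an edgeR adjusted p of 0.0429. This call was lost in 11 of 20 alternatives (adjusted p 0.0268 to 0.229 over all 20). Those were the filter of at least 1 count, DESeq2, the replicate block, the fit of only the groups compared, and the fits without WT DMSO library 1 or 3, WT GSK-LSD1 library 3, insR DMSO library 2 or 3, or insR GSK-LSD1 library 1 or 2. The log2 fold change without WT DMSO library 3 was -0.18. With the drug, VHL had a log2 fold change of -0.066 in insR cells (95% interval -0.27 to 0.14, edgeR adjusted p = 0.963) and 0.0087 in WT cells (95% interval -0.19 to 0.21).

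**Figure D2:**
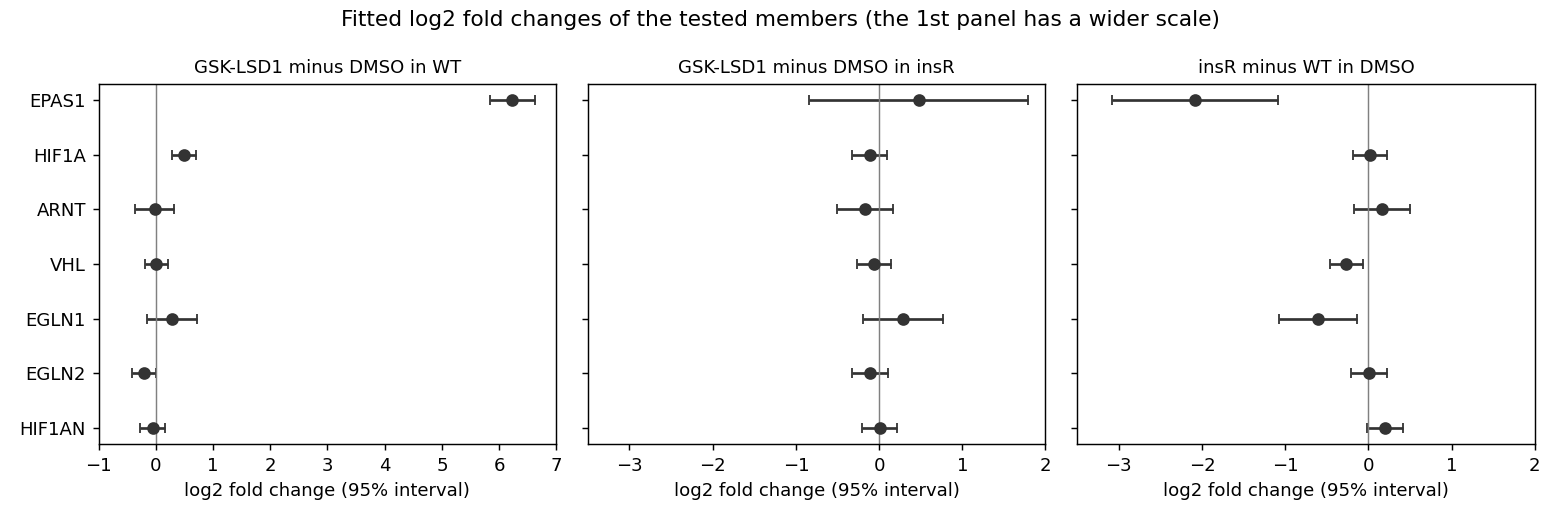
Fitted log2 fold change with its 95% interval (horizontal axis) of the 7 genes that passed the count filter, for GSK-LSD1 over DMSO in WT cells (left, wider scale), GSK-LSD1 over DMSO in insR cells (middle) and insR over WT cells in DMSO (right). EPAS1 lies at 6.23 in the left panel, every interval crosses 0 in the middle panel, and VHL and EGLN1 lie below 0 in the right panel. EPAS1 also lies below 0 there, but its intervals in the middle and right panels are a description and not a test. It passed the filter only through the WT GSK-LSD1 libraries.

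Set side by side, EPAS1 and HIF1A were the 2 of 7 genes whose WT groups did not overlap, both higher with the drug, against 51.9% of all tested genes. Nothing is read from this count, since it holds the contrast that chose EPAS1. For the same reason the threshold is not applied to the 7 genes in the WT response or in the difference between the responses. Over all tested genes, 45.2% passed the threshold in the WT response, 22.7% higher and 22.5% lower, and 25.1% in the difference. In the insR drug response 0 of the 6 tested genes apart from EPAS1 passed, against 0.505% of all tested genes (0.241% higher, 0.264% lower), and 0 of 6 had groups without overlap, against 13.7%. None of the 6 reached an unadjusted edgeR p of 0.05 there, the lowest being 0.231 for EGLN1, and none was called by DESeq2 or limma-voom. Between insR and WT cells in DMSO, VHL and EGLN1 were the 2 of these 6 that passed, both lower, against 30.1% of all tested genes, 14.5% higher and 15.6% lower. The groups did not overlap for the same 2, against 42.4% of all tested genes.

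EPAS1 had 7 reads in insR DMSO and 27 in WT DMSO libraries, a ratio of 0.225 (exact 95% interval 0.0828 to 0.53). The ratio is a description: it shares the WT DMSO libraries with the contrast that chose EPAS1, and in a fit of only those 2 groups EPAS1 did not pass the count filter. HIF1A and EGLN2 had log2 fold changes of 0.025 (95% interval -0.18 to 0.23, edgeR adjusted p = 0.88) and 0.0075 (95% interval -0.20 to 0.22, edgeR adjusted p = 0.97) in this comparison, and ARNT had 0.17 (95% interval -0.17 to 0.50, edgeR adjusted p = 0.473).

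Erythroid markers differed across the same groups. HBG1, a fetal globin gene with a near-identical copy that makes its separate value uncertain, averaged 1987 ± 38.7 CPM in insR GSK-LSD1, 2536 ± 152 in insR DMSO, 135 ± 10 in WT GSK-LSD1 and 1119 ± 124 in WT DMSO libraries (SD, n = 3 each). KLF1, an erythroid transcription factor, averaged 510 ± 33.3 CPM in insR GSK-LSD1, 521 ± 26 in insR DMSO, 251 ± 6.64 in WT GSK-LSD1 and 474 ± 34.3 in WT DMSO libraries (SD, n = 3 each). The 3 megakaryocytic markers, with PF4 at 0 everywhere, summed to 670 to 740, 700 to 749, 1078 to 1297 and 700 to 788 CPM in the same order of groups. Within WT cells they went opposite ways, with ITGA2B at 1182 ± 110 CPM with GSK-LSD1, against 734.9 ± 45 CPM with DMSO, and GP9 at 3.08 ± 1.19 CPM with GSK-LSD1, against 9.63 ± 0.813 CPM with DMSO. EPAS1 is also known as an endothelial gene, and the endothelial markers PECAM1 and TEK were at 0 in every library. The 6 endothelial markers summed to 3.22 to 5.27 CPM in insR GSK-LSD1, 4.27 to 6.43 in insR DMSO, 2.08 to 3.46 in WT GSK-LSD1 and 0.536 to 1.21 in WT DMSO libraries. Within WT cells CDH5 was at 0.781 CPM with GSK-LSD1, against 0.207 CPM with DMSO (log2 fold change 1.79). KDR had 41 reads with GSK-LSD1, against 4 with DMSO, while VWF went the other way, with 2 reads against 8. CDH5 was higher in insR cells, where EPAS1 was low, at 3.554 CPM with GSK-LSD1 and 4.697 CPM with DMSO. Its log2 fold change of insR over WT in DMSO was 4.325. CDH5 passed the count filter only through the insR libraries, where it is high, so it is given no p-value. The 5 fibroblast markers, with DCN at 0, summed to 0.415 to 2.58, 3.76 to 4.45, 3.4 to 3.97 and 0.179 to 0.878 CPM in the order of the endothelial sums. In that order COL1A2 averaged 0, 0.0339, 3.243 and 0.148 CPM, so it was highest in WT GSK-LSD1 libraries. COL1A1 averaged 1.669, 4.076, 0.432 and 0.252 CPM, so it was highest in insR DMSO libraries. The part of these marker differences in the results was not tested.

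Of 16 partners and coactivators of the factors listed, 9 passed the count filter. In the WT drug response 6 rose and 1 fell, with a median log2 fold change of 0.36 against 0.011 over all tested genes, of which 22.7% rose and 22.5% fell. CLOCK, a relative of the HIF subunits in the circadian clock, rose to 31.7 ± 2.12 CPM in WT GSK-LSD1, against 11.6 ± 1.57 in WT DMSO libraries (log2 fold change 1.44, edgeR adjusted p = 1.45e-08). The acetyltransferase CREBBP, whose binding HIF1AN blocks, rose to 226 ± 13.9 CPM with GSK-LSD1, against 143 ± 6.32 with DMSO (0.66, edgeR adjusted p = 9.92e-07). The coactivator NCOA3 rose to 52.1 ± 3.28 CPM, against 34.6 ± 7.01 with DMSO (0.59, edgeR adjusted p = 0.000718). In insR cells 0 of 9 passed with the drug, against 0.505% of all tested genes, with a median of 0.036 against -0.0010 over all genes. In DMSO, CLOCK was the only one of the 9 to differ between genotypes, at 21.95 ± 1.09 CPM in insR, against 11.6 ± 1.57 CPM in WT cells (0.90, edgeR adjusted p = 2.97e-05). Over all tested genes, 30.1% were called there. Without WT DMSO library 2, 3 of the 9 rose in WT cells. HIF3A, the third alpha subunit, had 12 reads in all and was not tested.

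Of the other subunits and cofactors of the VHL ligase, all 8 listed were tested. With the drug in WT cells 0 rose and 4 fell, with a median log2 fold change of -0.29 against 0.011 over all tested genes, of which 22.7% rose and 22.5% fell. ELOC, which links VHL to the cullin, fell to 65.75 ± 3.99 CPM with GSK-LSD1, against 122.7 ± 14.9 CPM with DMSO (-0.90, edgeR adjusted p = 1.2e-07). UBE2M, which helps attach NEDD8 to cullins, fell to 97.3 ± 9.8 CPM, against 172.5 ± 12.3 CPM with DMSO (-0.83, edgeR adjusted p = 1.21e-07). COPS5, which removes NEDD8 from cullins, fell to 16.4 ± 1.5 CPM, against 32.0 ± 11 CPM with DMSO (-0.98, edgeR adjusted p = 0.00865). In insR cells 0 of 8 passed with the drug (median -0.021), against 0.505% of all tested genes. In DMSO the scaffold CUL2 was at 24.1 ± 6.7 CPM in insR cells, against 48.0 ± 3.71 CPM in WT cells (-1.01, edgeR adjusted p = 5.57e-06). The adaptor ELOB was at 249 ± 16.5 CPM in insR cells, against 188 ± 33.8 CPM in WT cells (0.40, edgeR adjusted p = 0.00986). In DMSO 1 of the 8 was thus higher and 1 lower in insR cells, against 14.5% higher and 15.6% lower over all tested genes. The median of the 8 in DMSO was -0.0081 against 0.0052 over all genes. Without WT GSK-LSD1 library 1 or insR DMSO library 1, 2 rather than 1 of the 8 were lower in insR cells.

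Regulators of alpha-subunit stability and translation numbered 20, of which 17 were tested. In the WT drug response 3 rose and 7 fell (median log2 fold change -0.052, against 0.011 over all tested genes, of which 22.7% rose and 22.5% fell). The chaperone HSP90AA1, which protects alpha subunits from degradation outside the VHL route, fell to 1885 ± 152 CPM, against 3195 ± 71.7 CPM with DMSO (-0.76, edgeR adjusted p = 2.83e-08). SIAH2, a ubiquitin ligase for EGLN proteins, fell to 36.5 ± 6.6 CPM, against 63.5 ± 6.3 CPM with DMSO (-0.79, edgeR adjusted p = 1.35e-05). The cap-binding protein EIF4E fell to 39.1 ± 3.17 CPM, against 61.4 ± 1.69 CPM with DMSO (-0.65, edgeR adjusted p = 5.08e-05). In insR cells 0 of 17 passed with the drug (median 0.0096), against 0.505% of all tested genes. In DMSO 1 of 17 was lower and 0 higher in insR cells (median 0.029), against 15.6% lower and 14.5% higher over all tested genes. The lower gene was USP33, a deubiquitinase that VHL targets, at 49.5 ± 4.24 CPM in insR, against 66.4 ± 3.04 CPM in WT cells (-0.42, edgeR adjusted p = 0.0028). That lower count was 2 without WT GSK-LSD1 library 2 or insR DMSO library 1, and the higher count was 1 without WT DMSO library 1 or insR GSK-LSD1 library 1.

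Among other oxygen-dependent hydroxylases and their partners, 10 of 11 were tested. In the WT drug response 1 rose and 3 fell (median log2 fold change -0.081), where 22.7% rose and 22.5% fell over all tested genes. P4HA1, a collagen prolyl hydroxylase, fell to 42.8 ± 6.76 CPM, against 73.5 ± 15.5 CPM with DMSO (-0.78, edgeR adjusted p = 0.00014). JMJD6, a lysyl hydroxylase of splicing factors, fell to 22.4 ± 1.13 CPM, against 31.2 ± 3.19 CPM with DMSO (-0.49, edgeR adjusted p = 0.00361). P4HA2 had 9 reads with GSK-LSD1, against 36 with DMSO in WT cells, a ratio of 0.231 (exact 95% interval 0.0978 to 0.488). It passed the count filter only through the WT DMSO libraries, where it is high. Its place among the 3 genes that fell is therefore a description and not a test. In insR cells 0 of 10 passed with the drug (median -0.14), against 0.505% of all tested genes. In DMSO 2 were higher and 3 lower in insR cells (median 0.043), against 14.5% higher and 15.6% lower over all tested genes. PLOD2, a collagen lysyl hydroxylase, was at 87.95 ± 5.28 CPM in insR, against 52.0 ± 7.69 CPM in WT cells (0.76, edgeR adjusted p = 4.89e-06). P4HA2 had 1 read in insR DMSO, against 36 in WT DMSO libraries, a ratio of 0.0241 (exact 95% interval 0.000595 to 0.143). Its place among the 3 lower genes is likewise a description, since it passed the filter through WT DMSO. P4HB, a subunit of the same enzyme, was at 515 ± 29.6 CPM in insR, against 439 ± 13.3 CPM in WT cells (0.23, edgeR adjusted p = 0.0196). The P4HB call was lost without WT DMSO library 1 or 2 or insR DMSO library 1 or 2, with adjusted p of 0.0558 to 0.095 from edgeR, and each time 1 gene of the list was higher. Without WT DMSO library 2, or insR DMSO library 1 or 2, 1 gene rather than 3 was lower. The number that rose in the WT drug response was 0 without WT DMSO library 1 and 2 without WT DMSO library 2 or WT GSK-LSD1 library 1.

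Genes known as targets of the factors moved both ways in drug-treated WT cells. Of 44 listed, 38 were tested, and in the WT drug response 9 rose and 20 fell, with a median log2 fold change of -0.45 against 0.011 over all tested genes, of which 22.7% rose and 22.5% fell. SLC2A1, a glucose transporter, fell to 20.0 ± 4.78 CPM, against 84.0 ± 10.4 CPM with DMSO (-2.05, edgeR adjusted p = 3.77e-11). FAM162A, a mitochondrial cell-death protein, fell to 46.7 ± 4.28 CPM, against 144.5 ± 10.5 CPM with DMSO (-1.63, edgeR adjusted p = 2.67e-12). BNIP3L, a receptor for removal of mitochondria in maturing red cells, rose to 231 ± 9.75 CPM, against 101 ± 7.88 CPM with DMSO (1.20, edgeR adjusted p = 2.74e-11). CA9, a carbonic anhydrase often used as a hypoxia marker, had 4 reads in insR GSK-LSD1, 21 in insR DMSO, 0 in WT GSK-LSD1 and 2 in WT DMSO libraries and was not tested.

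**Figure D3:**
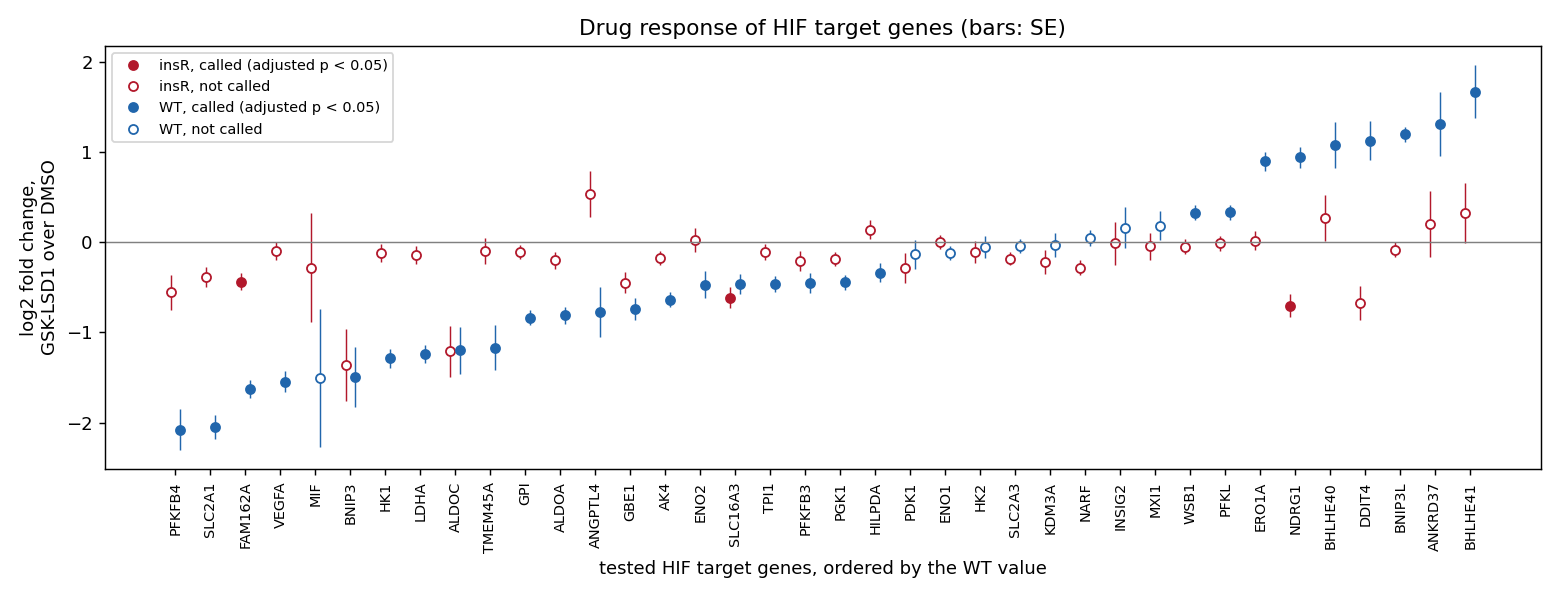
Log2 fold change of GSK-LSD1 over DMSO (vertical axis, bars are SE) for the 38 tested target genes in insR cells (red) and WT cells (blue), ordered by the WT value. Filled points passed the threshold; in WT cells 20 lie below 0 and 9 above, and in insR cells 3 pass, all below 0.

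In insR cells, 3 of the 38 targets passed with the drug, all lower, against 0.264% lower over all tested genes, and the median was -0.13. NDRG1, a stress-induced differentiation gene, fell to 15.5 ± 1.04 CPM with GSK-LSD1, against 25.2 ± 1.43 CPM with DMSO (-0.70, edgeR adjusted p = 0.00594). In WT cells the same gene rose to 39.6 ± 0.911 CPM, against 20.6 ± 0.514 CPM with DMSO (0.94, edgeR adjusted p = 5.83e-07). SLC16A3, a lactate exporter, fell in insR cells to 62.6 ± 8.29 CPM, against 95.5 ± 14.1 CPM with DMSO (-0.61, edgeR adjusted p = 0.0129). FAM162A fell in insR cells to 106 ± 8.15 CPM, against 144 ± 15 CPM with DMSO (-0.44, edgeR adjusted p = 0.0268). These 3 calls depended on single libraries. NDRG1 missed the threshold without insR GSK-LSD1 library 3 (edgeR adjusted p = 0.0506). SLC16A3 missed it without insR DMSO library 1 or insR GSK-LSD1 library 1 or 2 (0.0849 to 0.105, edgeR). FAM162A missed it without insR DMSO library 1 or 2 or any 1 of the insR GSK-LSD1 libraries (0.058 to 0.251, edgeR). The count of targets that fell was 1 without insR DMSO library 1 or insR GSK-LSD1 library 2, and 5 without WT GSK-LSD1 library 1.

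Between insR and WT cells in DMSO, 9 of the 38 targets were higher and 5 lower (median log2 fold change 0.091), against 14.5% higher and 15.6% lower over all tested genes. VEGFA, the growth factor for blood vessels, was at 161 ± 14.2 CPM in insR, against 59.9 ± 7.77 CPM in WT cells (1.42, edgeR adjusted p = 5.57e-11). TMEM45A was at 33.6 ± 1.73 CPM in insR, against 6 ± 1.5 CPM in WT cells (2.47, edgeR adjusted p = 6.04e-11). SLC2A1 was at 191 ± 14.8 CPM in insR, against 84.0 ± 10.4 CPM in WT cells (1.18, edgeR adjusted p = 2.78e-08). Without insR DMSO library 2 or 3, the count of lower targets was 3.

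Genes reported in other cell types to depend on EPAS1 more than on HIF1A moved in both directions. Of 15 listed, 9 were tested, and with the drug in WT cells 3 rose and 1 fell (median log2 fold change 0.52). Over all tested genes, 22.7% rose and 22.5% fell. CXCR4, a chemokine receptor, rose to 34.55 ± 2.66 CPM, against 10.4 ± 2.52 CPM with DMSO (1.71, edgeR adjusted p = 6.59e-08). ANGPT2, a vessel-remodelling ligand, rose to 48.9 ± 6.03 CPM, against 19.8 ± 0.828 CPM with DMSO (1.31, edgeR adjusted p = 7.98e-08). CCND1, a D cyclin, fell to 4.24 ± 0.48 CPM, against 9.32 ± 0.947 CPM with DMSO (-1.15, edgeR adjusted p = 0.000551). In insR cells 0 of 9 passed with the drug (median -0.11), against 0.505% of all tested genes. EPO itself had 4 reads in all 12 libraries and was not tested.

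In DMSO, 3 of these 9 were higher and 5 lower in insR than in WT cells (median -0.48), against 14.5% higher and 15.6% lower over all tested genes. CXCR4 was at 1.92 ± 0.495 CPM in insR, against 10.4 ± 2.52 CPM in WT cells (-2.48, edgeR adjusted p = 6.69e-08). CCND1 was at 1.89 ± 0.284 CPM in insR, against 9.32 ± 0.947 CPM in WT cells (-2.28, edgeR adjusted p = 4.2e-07). PLIN2, a lipid-droplet coat protein, was at 310 ± 14 CPM in insR, against 208 ± 22.4 CPM in WT cells (0.57, edgeR adjusted p = 3.47e-05). Comparisons with the drug in WT cells and between genotypes in DMSO share the WT DMSO libraries.

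The neighbours of EPAS1 on chromosome 2 were examined as the 4 tested genes on each side. PRKCE, which encodes protein kinase C epsilon and is the nearest tested gene before EPAS1, had the largest rise of the 8 neighbours in WT cells. It reached 9.4 ± 2.24 CPM with GSK-LSD1, against 1.32 ± 0.431 CPM with DMSO (log2 fold change 2.83, SE 0.36). In insR cells PRKCE was at 1.01 CPM with GSK-LSD1, against 0.583 CPM with DMSO (0.60). Like EPAS1, PRKCE passed the filter on low counts only through the drug-treated WT libraries, so it is given no p-value. PREPL fell in WT cells by 0.55 on the log2 scale (edgeR adjusted p = 0.000101). ATP6V1E2 and PIGF had log2 fold changes of -0.67 and -0.63 in WT cells, with edgeR adjusted p of 0.0395 and 0.0336. The ATP6V1E2 call was lost without WT DMSO library 2 or 3 or WT GSK-LSD1 library 1 or 3 (up to 0.217, edgeR). It was also lost with upper-quartile scaling, the filter of at least 1 count, DESeq2, the replicate block and the fit of only the groups compared. The PIGF call was lost without WT DMSO library 2 or 3 or WT GSK-LSD1 library 1 (up to 0.171, edgeR) and in the fit of only the groups compared. CAMKMT, SRBD1, RHOQ and CRIPT had log2 fold changes of -0.43, 0.048, -0.18 and -0.21 and did not pass in WT cells. None of the neighbours given a p-value passed in insR cells.

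**Figure D4:**
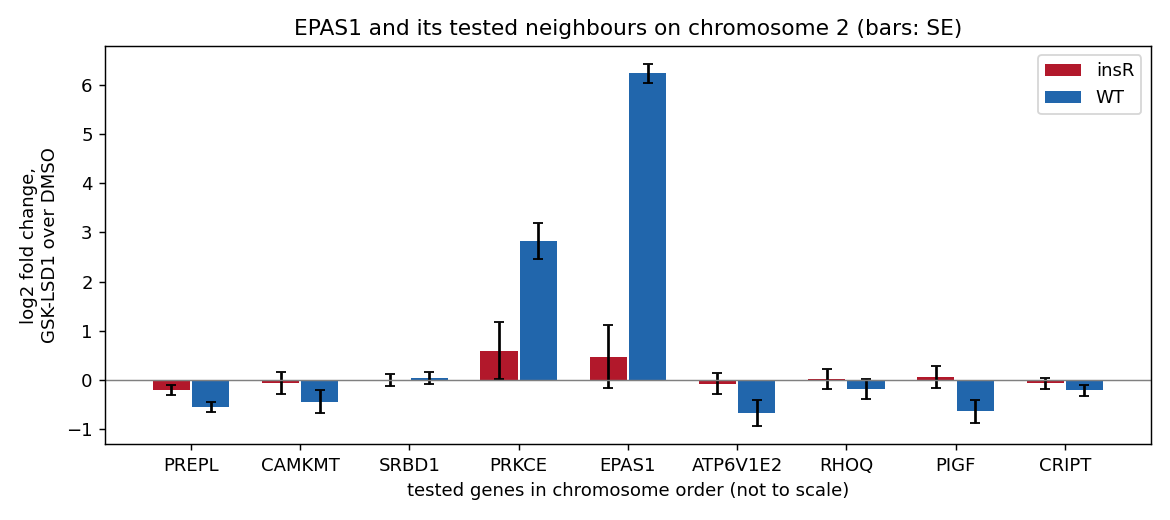
Log2 fold change of GSK-LSD1 over DMSO (vertical axis, bars are SE) for EPAS1 and the 4 tested genes on each side of it, in chromosome order and not to scale, in insR cells (red) and WT cells (blue). EPAS1 at 6.23 and PRKCE at 2.83 stand out in WT cells, and the other neighbours lie between -0.67 and 0.048 there.

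The tested genes whose levels over the 12 libraries were most like EPAS1 were found by the root mean square difference of log2 CPM, each gene centred on its own mean. CLEC4A, a lectin receptor of myeloid cells, was nearest at 0.604, followed by WLS, the carrier of Wnt proteins, at 0.706 and PI16 at 0.763. JAML, a leukocyte adhesion molecule, followed at 0.787, then ENSG00000271046 at 0.847 and the kinase MAPK13 at 0.972. Genes that matched no symbol were left out, and 1 such tested gene lay nearer than MAPK13. In WT GSK-LSD1 libraries these 6 averaged 78.5, 20.5, 33.4, 45.5, 19.6 and 14.8 CPM, in that order. In the other groups each averaged 0.535 CPM or less. The measure gives the most weight to the single step that EPAS1 was known to show, so it ranks genes by that step.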

How the data were processed

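RNA was measured in 12 SET-2 libraries, grouped by the sample titles, in 4 groups of 3. Per the labels' protocols, polyadenylated RNA went into QuantSeq 3′ libraries of the forward type, whose reads start close to transcript ends. The submitters' processing notes name hg19 as the build, with STAR 2.6.0c, HTSeq 0.9.1, bcl2fastq 2.2 and DESeq2 as tools. No annotation release was stated there. The authors deposited raw counts, 1 whole number per gene and library. Summary entries without a gene were left out of every total. Of these, non-unique alignments held 57.9% to 62.6% of a table, and ambiguous reads 0.68% to 0.75%.

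All 12 libraries entered 1 model in R 4.3.3, with edgeR 4.0.16: TMM library sizes, filterByExpr, and the quasi-likelihood test in its robust form. Benjamini-Hochberg adjustment ran over 12864 genes, those below 0.05 were called, and the procedure was tested on simulated data. Standard errors and 95% intervals come from that fit. Symbols and neighbours were read from GENCODE 29 and RefSeq, and promoter windows from RefSeq GRCh38.p14, which is not the build of the files. The members and the lists were chosen with earlier results of these data known. Text names all 8 members and every list gene called in the insR response. From each list it names up to 3 called genes of lowest p in the WT response and in insR against WT. It also names the 4 tested neighbours on each side of EPAS1, and the 6 genes nearest in pattern among those matched to a symbol. Alternatives were 8 other settings, with limma-voom (limma 3.58.1) and DESeq2 1.42.0 among them, and leaving out each of the 12 libraries. 1 erythroid marker is not reported here.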

Additional observations from a re-analysis of the deposited data

Results flagged for a closer look

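Each value here is the insR drug response minus the WT drug response on the log2 scale. For EPAS1 the difference was -5.75 and for HIF1A -0.61, and both hold the contrast behind the choice of EPAS1, so no test is given. The other differences, apart from PRKCE, passed the threshold of edgeR's test of the difference itself, as did 25.1% of all tested genes. These genes were named for a low p in a comparison that shares libraries with the difference, most of them in the WT response. That choice made a pass likely, so it is no separate support. Among partners and coactivators, the difference was -1.33 for CLOCK, -0.68 for CREBBP and -0.52 for NCOA3. For NCOA3 it was lost in 10 of 19 alternatives, with adjusted p up to 0.123 from edgeR. Among ligase and stability genes it was 0.85 for ELOC, 0.84 for UBE2M, 0.73 for HSP90AA1, 0.65 for SIAH2 and 0.66 for EIF4E. Among targets it was 1.66 for SLC2A1, 1.45 for VEGFA, 1.19 for FAM162A, 1.07 for TMEM45A, -1.28 for BNIP3L and -1.64 for NDRG1. It was -1.004 for ANGPT2. For the EPAS1 neighbour PRKCE it was -2.23, and -1.66 without insR DMSO library 1. No test is given for PRKCE, since it passed the count filter only through the drug-treated WT libraries. Groups of 3 are too small for a check of single outlying libraries.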

How the results depend on the processing

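Over 134 results, 2641 values were recomputed, of which 2508 kept their direction and their side of the threshold or stayed within the replicate spread. Other settings ended these calls for insR over WT in DMSO: VHL had a log2 fold change of -0.25 with the filter of at least 1 count, -0.26 with DESeq2, -0.26 with the replicate block and -0.27 with only the groups compared, and EGLN1 had -0.60 with DESeq2 and -0.56 with limma-voom. EGLN2 there was -0.0011 with only the groups compared, against 0.0075. Genes called in the insR response numbered 118 with the filter of at least 1 count, against 65. That filter also gave, in lists, 1 stability regulator higher in insR in DMSO (as did DESeq2 and limma-voom), 1 other hydroxylase lower in the insR response (as did only the groups compared), 1 other hydroxylase lower in insR in DMSO, and 6 targets lower in the insR response (5 with only the groups compared). Stability regulators lower in insR in DMSO numbered 2 with upper-quartile scaling or at least 10 CPM in 3 libraries. With that CPM filter, 0 EPAS1-preferring genes fell in the WT response and 1 was higher in insR in DMSO, and CCND1, P4HA2, CAMKMT, PRKCE and ATP6V1E2 gave no value.

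Leaving out 1 library gave 28 to 91 genes called in the insR response, with 29 and 34 without insR DMSO library 1 and 2, and 28, 28 and 40 without insR GSK-LSD1 library 1, 2 and 3. For the insR response, the log2 fold change ran from -0.041 to 0.89 for EPAS1 and from -0.064 to 0.12 for HIF1AN, and the EPAS1 difference in response from -6.26 to -5.33. For insR over WT in DMSO it ran from -0.040 to 0.13 for HIF1A, -0.024 to 0.28 for ARNT, -0.33 to -0.18 for VHL, -0.76 to -0.36 for EGLN1, -0.061 to 0.075 for EGLN2, -0.068 to 0.20 for CAMKMT and -0.086 to 0.043 for SRBD1, and for SRBD1 in the WT response from -0.032 to 0.092. In lists it gave 3 to 6 partners higher and 0 to 2 other hydroxylases higher in the WT response, and 1 to 5 targets lower in the insR response. For insR over WT in DMSO it gave 1 to 2 ligase genes lower, 0 to 1 stability regulators higher and 1 to 2 lower, 1 to 2 other hydroxylases higher and 1 to 3 lower, and 3 to 5 targets lower. The cause of these changes was not tested.

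Deviations of same-numbered libraries from their group means had correlations of -0.169 to 0.198 over 18 pairs, against -0.313 to 0.289 for differently numbered libraries. No shared deviation by number was seen. The labels do not say whether equal numbers mark paired samples, and these correlations cannot settle it. With the replicate block, 5818 genes were called in the WT response, 60 in the insR response, 3897 for insR over WT in DMSO and 3198 in the difference. Among the genes named, the block ended the calls of VHL (-0.26) and, in the WT response and in DMSO, of ATP6V1E2 (-0.66 and 0.60). The fit of only the groups compared cannot give the difference in response, and it filtered out EPAS1 outside the WT response.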
